A study of Arabidopsis thaliana with 12 samples.

Results

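The CBF factors and the cold-regulated COR genes that they bind were followed by locus in the leaf transcriptome of Arabidopsis thaliana grown under 4 light regimes. The set held 10 genes, taken by locus: the 3 transcription factor genes CBF1, CBF2 and CBF3 and the 7 COR genes COR15A, COR15B, RD29A, COR47, ERD10, KIN1 and KIN2. Of these, 9 were among the 6520 genes that the authors' deposited tables list in at least 1 comparison, and CBF3 was in none.

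RNA-seq of polyadenylated leaf RNA was available from 12 libraries of Col-0, the Columbia reference accession, with 3 libraries per regime described by the study as independent replicates. In the square regimes, SQH at high and SQL at low intensity, the lamp stays at a constant level through the day. In the fluctuating regimes, FLH at high and FLL at low intensity, the light rises at dawn, varies as it does outdoors and falls towards dusk. The daily amount of light was matched between SQH and FLH and between SQL and FLL. Plants were well watered and acclimated for 22 days. The study states that all tissue was taken within minutes. Its methods for DNA give a harvest around midday in the order SQH, SQL, FLH and FLL. If RNA was taken in that order too, order and regime cannot be told apart. The labels give a growth temperature of 22 °C. The study's methods state this for the seedling stage and, for the time under the lamps, a slightly cooler day with a night several degrees cooler. No temperature that differs between the 4 regimes is stated, and no separate cold treatment. Values per library were not used here: each gene has a mean normalised count over the 12 libraries and, where the authors' DESeq2 test called it, a log2 fold change with a standard error (SE). A gene is called, or listed, where its adjusted p does not exceed 0.05 and its log2 fold change is 0.5 or more in either direction. Leaf identity was checked on 8 mesophyll markers, of which 6 were listed, with mean normalised counts from 134805 to 503060. The largest of these was the highest of any listed gene. The FLL libraries, together with 1 library of SQL, had more of their reads mapped than the others had, according to the alignment statistics of the study. Leaves are mixtures of cell types, and less RNA per cell and fewer cells of a type cannot be told apart in them. The split in mapping and the FLL regime cannot be told apart either, so every comparison with FLL carries it, while SQH with FLH holds no FLL library.

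CBF proteins, also named DREB1, are AP2-domain transcription factors that bind the C-repeat or dehydration-responsive element (CRT/DRE), whose core is CCGAC, in front of COR genes. In Arabidopsis the CBF genes are known for a rapid and transient rise on transfer to low temperature, followed by a rise of the COR genes, whose products are mostly hydrophilic proteins that protect membranes and enzymes during freezing and dehydration. CBF expression is also gated by the circadian clock and modulated by light quality, and many COR genes respond in addition to abscisic acid through the ABRE, whose core is ACGTG.

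The binding element is shown first, because CBF proteins are known to act on COR genes through it. The deposited tables carry no coordinates, so positions are those of the RefSeq annotation of TAIR10.1. In RD29A, which encodes a hydrophilic stress protein widely used as a reporter of CRT/DRE activity, the 150 bases before the gene start (chr5:21240567-21240716, + strand) hold 3 cores. In COR15A, which encodes a chloroplast protein that stabilises membranes, the 150 bases before the gene start (chr2:17712331-17712480, - strand) hold 2 cores, the first of which reads GTCGG because it lies on the other strand. Capitals mark the cores.
RD29A: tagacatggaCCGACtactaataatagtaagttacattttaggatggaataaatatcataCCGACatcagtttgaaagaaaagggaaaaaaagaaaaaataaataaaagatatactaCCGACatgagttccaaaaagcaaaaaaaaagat
COR15A: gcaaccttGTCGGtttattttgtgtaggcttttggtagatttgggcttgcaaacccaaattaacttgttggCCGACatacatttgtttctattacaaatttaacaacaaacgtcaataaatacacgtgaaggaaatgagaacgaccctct

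The other 5 COR genes carry the core inside the annotated gene but ahead of the start codon. The following 21-base stretches surround it, with the core in capitals. They lie at chr2:17710126-17710146, chr1:7085920-7085940 and chr1:7089373-7089393 on the - strand and at chr5:5209806-5209826 and chr5:5211773-5211793 on the + strand.
COR15B: cttgatggCCGACctcttttt
COR47: ttcatctaCCGACttcaagaa
ERD10: ttcatccaCCGACCGACCGAC
KIN1: aatagctaCCGACataaggca
KIN2: aaaagctaCCGACataaggca
In ERD10 the core is repeated in 3 overlapping copies.

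Counted over equal windows, CCGAC on either strand was present in the window from 250 bases before to 50 bases after the gene start in 2 of the 10 genes, COR15A and RD29A, and in 15.1% of 27440 annotated protein-coding genes. In the 500 bases before the start codon, a window chosen after the first had been counted, it was present in 7 of 10 genes and in 23.4% of all. The 7 were the 7 COR genes, and no match was found in the 3 CBF genes. ACGTG was present in 4 of 10 genes and 26.7% of all in the first window, and in 9 of 10 genes, all but ERD10, and 34.9% of all in the longer one. The evening element AAAATATCT, a binding site of clock MYB factors, was present in none of the 10 genes and 2.82% of all in the first window. In the longer window it was present in CBF3, COR15A, COR15B and KIN2, and in 4.02% of all. A match describes the sequence only.

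**Figure D1:**
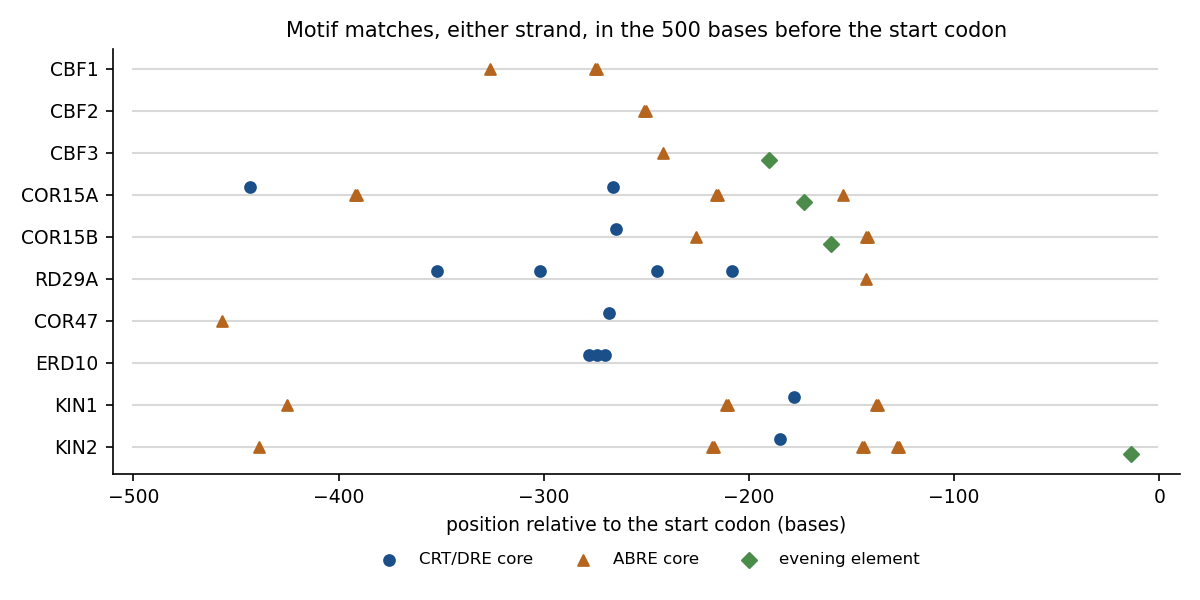
Positions of motif matches on either strand in the 500 bases before the start codon of each gene, where 0 on the horizontal axis is the start codon. The 7 COR genes each carry at least 1 CRT/DRE core (circles), and the lines of CBF1, CBF2 and CBF3 carry none.

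The genes lie in clusters. On chromosome 4, minus strand, CBF2 (AT4G25470, 13015250 to 13016235), CBF3 (AT4G25480, 13018010 to 13019400) and CBF1 (AT4G25490, 13021780 to 13022996) follow each other with 1774 and 2379 bases between them. COR47 (AT1G20440) and ERD10 (AT1G20450) are 1029 bases apart on chromosome 1, and KIN1 (AT5G15960) and KIN2 (AT5G15970) are 892 bases apart on chromosome 5. COR15B (AT2G42530) starts 7 bases beyond the end of COR15A (AT2G42540) on chromosome 2. RD29A (AT5G52310) stands alone on chromosome 5. Neighbours are close copies: the coding sequences of KIN1 and KIN2 are identical at 191 of 201 positions (95.02%), those of COR15A and COR15B at 82.6%, and those of CBF1 and CBF2 at 86.3%. How reads matching more than 1 gene were counted is not given in the sources used here. The longest identical run between transcripts was 68 bases, in CBF1 and CBF2. COR15B overlaps AT2G42520 on the opposite strand by 468 bases and CBF3 overlaps the non-coding AT4G07385 by 29 bases. Whether strand was used in counting is not given either, so the value of COR15B may include reads of its partner.

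To ask how the set responds to light intensity under a fluctuating pattern, FLH was compared with FLL. Of the 10 genes, 9 were called, all 9 with the higher level in FLH: CBF1, CBF2 and the 7 COR genes. Over all 20865 genes tested, 9.89% were called and 5.38% were called with the higher level in FLH. The median log2 fold change of the 9 genes was 3.38, beside a median absolute log2 fold change of 1.89 over all 2063 called genes and 2.20 over the 1123 called higher in FLH. Their fold changes also had wide errors, and a wide error raises the fold change that a call needs. The 9 genes enter this median only because they were called, so its larger size is in part set by the calling. The median SE was 0.81, beside 0.51 over all called genes. The SEs imply a coefficient of variation of 53.1% to 86.0%, with a median of 68.6%. This value includes counting noise and was derived from the deposited SE, not measured between FLH or FLL replicates. The median was 37.5% over the called genes whose mean normalised count reached 1000, a level that 6 of the 9 genes reached.

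**Figure D2:**
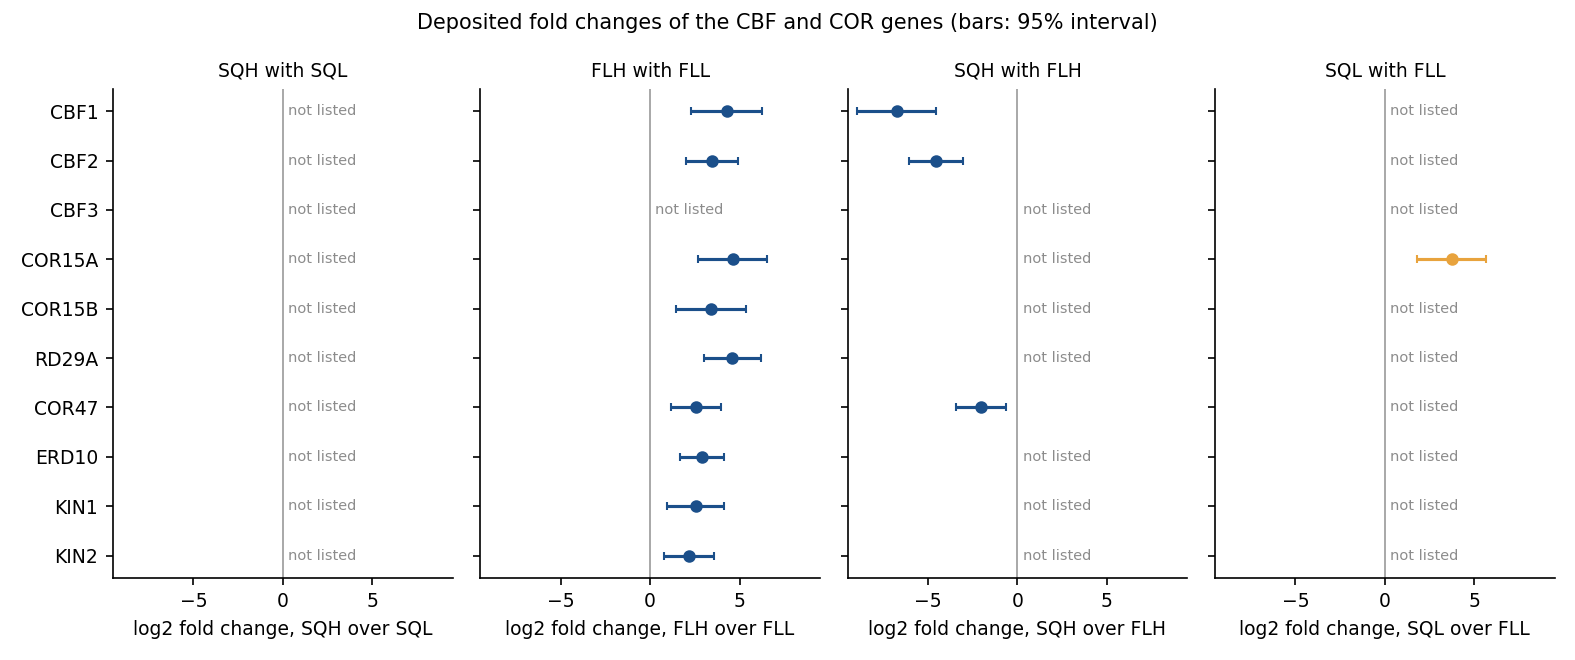
Deposited log2 fold changes of the 10 genes in the 4 comparisons, with bars for the 95% interval (the fold change plus or minus the normal quantile times the SE) and colour for the regime with the higher level. All 9 values of FLH with FLL lie to the right of 0, the 3 values of SQH with FLH lie to the left, and no gene is listed for SQH with SQL.

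Per length of transcript, the CBF genes were the lowest of the 9 listed genes. CBF1 had 56.1 and CBF2 88.4 normalised counts per kb over the 12 libraries (means of 68.2 and 87.2), and the COR genes ranged from 719 per kb in KIN1 to 22380 per kb in COR15A. CBF1 was higher in FLH than in FLL by 4.28 (SE 1.01) on the log2 scale, a fold of 19.4 with a 95% interval of 4.90 to 77.0 and an adjusted p of 0.00109. For CBF2 the log2 fold change was 3.45 (SE 0.75), a fold of 10.9 (3.95 to 30.2), with an adjusted p of 0.000276. CBF3, whose product binds the same element, was not listed in this or any other comparison. A gene can be unlisted because it missed a threshold or because it was too low to be tested, and the tables do not separate these, so no level can be given for CBF3.

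The COR15 pair encodes small chloroplast proteins. COR15A had a mean normalised count of 34555 and a log2 fold change of 4.61 (SE 0.99), a fold of 24.5 (6.38 to 94.0), with an adjusted p of 0.000223. COR15B had a mean of 7993 and a log2 fold change of 3.38 (SE 0.999), a fold of 10.4 (2.68 to 40.5), with an adjusted p of 0.0141. The intervals of the neighbours overlap over most of their range. RD29A had the smallest p of the set and ranked 110 of the 2063 called genes by p. Its log2 fold change was 4.59 (SE 0.81), a fold of 24.1 (8.03 to 72.2), with an adjusted p of 2.55e-06 at a mean of 8596.

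COR47 and ERD10 are acidic dehydrins, proteins that remain soluble and shield other proteins and membranes as cells lose water. ERD10 had the smallest SE of the set, with a log2 fold change of 2.90 (SE 0.62), a fold of 7.48 (3.20 to 17.5) and an adjusted p of 0.000241 at a mean of 18043. COR47 had a log2 fold change of 2.58 (SE 0.71), a fold of 5.99 (2.28 to 15.7), with an adjusted p of 0.00706 at a mean of 13449. The dehydrins therefore had lower point estimates than COR15A and RD29A, with intervals that overlap theirs. KIN1 and KIN2 encode short hydrophilic proteins and had the smallest changes. KIN1 had a log2 fold change of 2.56 (SE 0.82), a fold of 5.89 (1.94 to 17.9), with an adjusted p of 0.0255. The value of KIN2 was 2.19 (SE 0.71), a fold of 4.57 (1.74 to 11.99), with an adjusted p of 0.0279. Although 95.02% identical in coding sequence, they differed in level, with means of 719 normalised counts per kb for KIN1 and 14321 for KIN2.

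**Figure D3:**
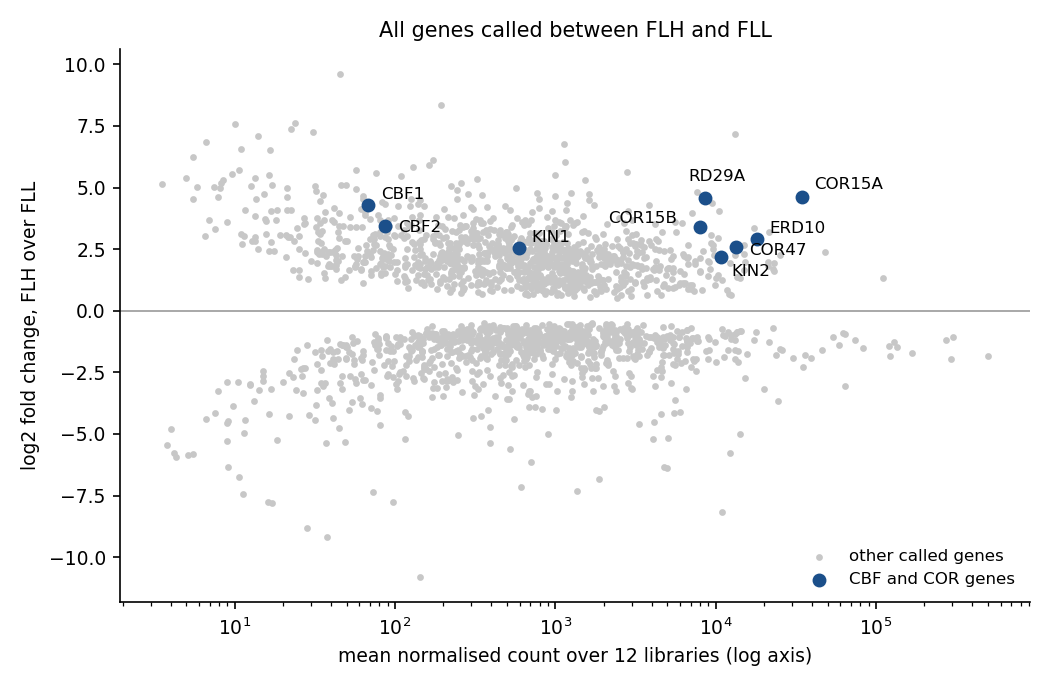
Log2 fold change of FLH over FLL against the mean normalised count over the 12 libraries, on a log axis, for the 2063 genes that the deposited table lists, with the 9 listed CBF and COR genes in blue. The blue points lie between 2.19 and 4.61 on the vertical axis, and 6 of them have a mean of at least 1000.

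To ask how the set differs between light patterns at high intensity, SQH was compared with FLH. Here 3 of the 10 genes were called, CBF1, CBF2 and COR47, all 3 with the higher level in FLH. Of all 20865 genes tested, 22.2% were called and 12.1% were called with the higher level in FLH. CBF1 was higher in FLH by 6.74 (SE 1.13) on the log2 scale, a fold of 107 with a 95% interval of 23.1 to 495 and an adjusted p of 1.8e-07. CBF2 was higher by 4.55 (SE 0.77), a fold of 23.4 (8.22 to 66.4), with an adjusted p of 2.53e-07. COR47 was higher by 2.06 (SE 0.71), a fold of 4.17 (1.59 to 10.9), with an adjusted p of 0.0219. The FLH libraries enter both this comparison and FLH with FLL, so the values of the comparisons are not independent. Leaf mesophyll markers also differed in both. In FLH with FLL, 4 of the 8 were called, LHCB1.1, LHCB2.1, RCA and RBCS3B, lower in FLH by 1.19 to 1.97 on the log2 scale. In SQH with FLH, 4 of the 8 were called, RBCS3B, RBCS2B, RCA and CA1, lower in FLH by 1.36 to 1.84. These encode abundant proteins of the antenna and of carbon fixation, and their part in the higher CBF and COR levels of FLH was not tested.

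To ask the same at low intensity, SQL was compared with FLL. Only COR15A was called among the 10 genes, beside 8.2% of all 20865 genes tested and 3.99% called with the higher level in SQL. COR15A was higher in SQL by 3.74 (SE 0.99) on the log2 scale, a fold of 13.4 (3.48 to 51.3), with an adjusted p of 0.00802. This direction is the opposite of that of CBF1, CBF2 and COR47 at high intensity, where the fluctuating regime was the higher. In SQH with SQL, which tests intensity under square light, 0 of the 10 genes were listed in the authors' DESeq2 table, beside 3.11% of 21349 genes tested. The counts at an unadjusted p cannot be had for unlisted genes.

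Not being listed still bounds a difference. The largest p listed in each table, together with the SE of a gene elsewhere, gives the absolute log2 difference above which it would have been listed if its SE was similar. Between SQH and FLH this limit was 2.05 for RD29A, 1.59 for ERD10, 2.54 for COR15B, 2.07 for KIN1 and 1.80 for KIN2. Between SQL and FLL the limits were 2.32 for RD29A, 1.79 for ERD10, 2.87 for COR15B, 2.34 for KIN1 and 2.04 for KIN2. Differences of severalfold in these genes were thus not detectable with 3 libraries per regime, and an unlisted gene is not shown to be equal between regimes. For RD29A the deposited fold change and these limits together place the point estimate of SQH at least 2.54 above FLL, and that of FLH at least 2.27 above SQL, on the log2 scale. For ERD10 the same bounds were 1.32 and 1.11. These bounds concern point estimates and carry no test.

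For the 4 genes listed in 2 tables, the mean of each regime could be solved. The SE of a fold change contains counting noise that depends on the means of its 2 regimes, and the difference between the squared SEs of comparisons that share a regime therefore fixes the absolute scale of the remaining regimes. With the fold changes this gives 3 regime means, and the fourth follows by subtraction from the overall mean. The constants of this relation were fitted on the 211 genes listed in at least 3 tables, less those with a very low mean in any regime. For a check, part of the 211 genes was held out of a fit, and solved means were set against known means. Their ratio had its 5th and 95th percentile at 0.986 and 1.017 where the unshared regimes differed by less than 1 on the log2 scale. Where they differed by more, the percentiles were 0.997 and 1.006.

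CBF1 had a mean normalised count of 254.5 in FLH, 13.1 in FLL, 2.95 in SQL and 2.38 in SQH. The SQL and SQH means are below 3 counts, at which a fold is poorly determined, as its interval shows. Genes with regime means this low were not used to fit the constants. Between SQH and FLL the difference in CBF1 was -2.46 (SE 1.15, 95% interval -4.71 to -0.21), and between SQL and FLL it was -2.15 (SE 1.12, -4.35 to 0.05). CBF2 had 291 in FLH, 26.6 in FLL, 18.6 in SQL and 12.5 in SQH. For CBF2 the order below FLH rests on differences smaller than their errors: FLL and SQL differed by 0.52 (SE 0.77) and SQL and SQH by 0.58 (SE 0.79) on the log2 scale. FLH stood above SQL, a pair without a table of its own, by 6.43 (SE 1.0997) in CBF1 and 3.97 (SE 0.76) in CBF2. These SEs leave out the error of the subtraction that gave the SQL mean. Both CBF genes were thus highest in FLH. The order of the other regimes in CBF2 is not settled, since SQL (32.9) lies above FLL (25.5) when the constants of the relation are set to 1.

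COR47 was also highest in FLH, with 34919 in FLH, 8381 in SQH, 5831 in FLL and 4663 in SQL. With the fitted constants the neighbours below FLH did not differ beyond their errors. SQH lay above FLL by 0.52 (SE 0.71) and above SQL by 0.85 (SE 0.71) on the log2 scale. The second SE leaves out the error of the subtraction that gave SQL. COR15A had another order. Its mean was 70967 in SQH, 42390 in FLH, 23133 in SQL and 1731 in FLL. SQH and FLH differed by 0.74 (SE 0.99), FLH and SQL by 0.87 (SE 0.99), and SQH and SQL by 1.62 (SE 0.99). The 95% interval of each includes 0, and that of the last ran from -0.32 to 3.56. FLL was the low regime of COR15A, 5.36 (SE 0.99) below SQH on the log2 scale, with a 95% interval of 3.42 to 7.30. Of these 4 genes, 3 were highest in FLH and COR15A was lowest in FLL. Both patterns give a higher level in FLH than in FLL. CBF1, CBF2 and COR47 were solved from the 2 calls that share FLH, and COR15A from the 2 that share FLL. The patterns therefore largely restate which comparisons were called, and do not describe the other genes of the set. The FLL libraries also stand apart in their share of mapped reads, which cannot be told apart from the regime in the COR15A level.

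**Figure D4:**
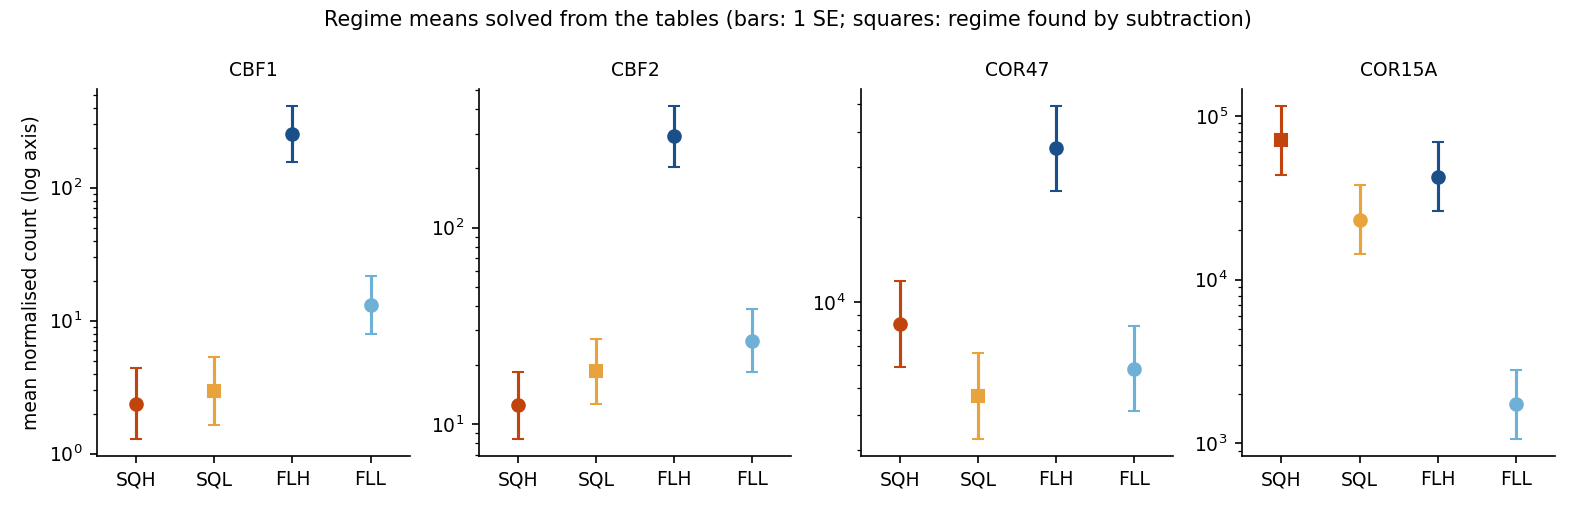
Mean normalised count of each regime, on a log axis, for the 4 genes whose regime means could be solved, with bars of 1 SE from the dispersion in the deposited SEs and squares for the regime found by subtraction. CBF1, CBF2 and COR47 are highest in FLH, at 254.5, 291 and 34919, and COR15A is lowest in FLL, at 1731.

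The SEs of differences with a mean found by subtraction leave out the error of that step. The SQL means of CBF1, CBF2 and COR47 came from subtraction and are the least certain. With the fitted constants they ranged over the calibration checks from 2.16 to 4.49, from 17.6 to 20.5 and from 3943 to 5463. With all constants set to 1 they became 9.54, 32.9 and 165. The last would lie more than the limit of 2.04 below FLL, at which COR47 would have been listed for SQL with FLL. As a check on the solved means, the 8 differences they give for comparisons in which these genes were not listed all fell below the threshold of the table concerned. The limits for these genes ran from 2.04 to 3.57 on the log2 scale. The check could therefore pass means that are off by severalfold.

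For the 5 genes listed once, regime means could only be bracketed by the same limits. In FLH the mean of RD29A lay between 6378 and 26629 and in FLL between 265 and 1106. For ERD10 the brackets were 15691 to 47941 in FLH and 2099 to 6413 in FLL, and for COR15B 4210 to 24950 and 404 to 2392. KIN2 lay between 7666 and 27559 in FLH and between 1678 and 6032 in FLL, and KIN1 between 382 and 1654 and between 64.9 and 281. In each of the 5 genes the FLH bracket lay wholly above the FLL bracket. The FLL bracket is the FLH bracket divided by the called fold, so this order restates the call and adds no evidence. These brackets cannot say whether a gene was high in FLH, as CBF2 was, or low in FLL, as COR15A was.

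Regulators of the CBF genes were counted on a list of 27 loci. In FLH with FLL, 9 were called (33.3%, beside 9.89% of all genes tested), 6 of them lower in FLH. In SQH with FLH 14 were called (51.9%, beside 22.2%), 8 of them higher in FLH. The clock MYB genes, which bind evening elements in CBF promoters and are known there as activators, stood in the opposite direction to the CBF genes. CBF1 and CBF2, the CBF genes called here, held no match to AAAATATCT in the windows examined, while CBF3 held it in the longer window. Sequence further upstream and other forms of the element were not searched, so this says nothing about clock MYB binding at CBF1 or CBF2. LHY was lower in FLH than in FLL by 8.16 (SE 1.13) and lower in FLH than in SQH by 7.19 (SE 1.13), and CCA1 was lower by 5.76 (SE 0.995) and 5.14 (SE 0.995), on the log2 scale. RVE8 was lower in FLH by 4.59 (SE 0.86) and 4.13 (SE 0.86), and PRR9, a repressor of the clock, by 3.25 (SE 0.62) and 2.999 (SE 0.62). The 3 regulators higher in FLH than in FLL were TOC1, a clock repressor, by 2.20 (SE 0.72), MYB15, a repressor of CBF genes, by 3.47 (SE 0.83), and ZAT12, a zinc finger factor that lowers CBF expression when overproduced, by 2.27 (SE 0.71). TOC1 was also higher in FLH than in SQH, by 4.45 (SE 0.72), as were LUX, of the evening complex, by 4.74 (SE 0.89) and SOC1, a flowering factor that represses CBF genes, by 1.62 (SE 0.27). ICE1, the bHLH activator of CBF genes, was in no table. Among the other regulators called in SQH with FLH, named after their values were seen, CAMTA3, an activator of CBF genes, was higher in FLH by 1.36 (SE 0.34), and MYB15 by 2.45 (SE 0.83). PIF4, EIN3 and PRR7 were higher in FLH and PHYB lower, by less than MYB15 and down to 0.81 in PRR7. SCRM2, the closest relative of ICE1, was lower in FLH than in FLL by 0.88 (SE 0.27) and lower than in SQH by 0.85 (SE 0.27). In FLH with FLL the called clock MYB genes, known as activators, and SCRM2 were thus all lower in FLH. The repressors MYB15 and ZAT12 were higher there, as was TOC1, while PRR9 was lower. In SQH with FLH the activator CAMTA3 was higher in FLH, while LHY, CCA1, RVE8 and SCRM2 were lower. The part of any of these regulators in the CBF result was not tested. In SQL with FLL, LUX and RVE4 were called (7.41%, below the 8.2% of all genes), both higher in FLL, by 2.70 (SE 0.89) and 1.78 (SE 0.57), and in SQH with SQL 0 of the 27 were listed.

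Other cold-regulated genes gave a mixed picture on a list of 24 loci. In FLH with FLL 4 were called (16.7%, beside 9.89% of all genes), all 4 higher in FLH: the dehydrin gene LTI30 by 4.16 (SE 0.91), ERD7 by 3.96 (SE 0.67), LEA14 by 2.68 (SE 0.62) and COR27 by 2.41 (SE 0.73). In SQH with FLH 7 were called (29.2%, near the 22.2% of all genes), 5 of them higher in FLH. COR28 and COR27, clock-associated repressors named for their cold response, were higher in FLH by 9.73 (SE 2.16) and 8.40 (SE 0.81), and ERD7 and the membrane protein gene RCI2A by 2.96 (SE 0.67) and 2.87 (SE 0.69). COR413PM1, another membrane protein gene, was higher in FLH by 1.27 (SE 0.39). GOLS1 and GOLS3, galactinol synthases that open the raffinose pathway, were higher in SQH instead, by 2.26 (SE 0.81) and 3.87 (SE 1.27). In SQL with FLL 3 were called (12.5%, beside 8.2% of all genes), COR27, COR28 and GOLS2, all higher in FLL, by 6.99 (SE 0.89), 7.81 (SE 2.29) and 3.99 (SE 1.01), a direction opposite to that of COR15A. GOLS2 was also the only gene of this list called in SQH with SQL, higher in SQH by 3.88 (SE 1.01). RD29B and RAB18, markers of the abscisic acid branch, were in no table.

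Among 6 other DREB factors, 2 were called in FLH with FLL (33.3%, beside 9.89% of all genes), DDF1 by 8.33 (SE 1.87) and DREB2A by 2.96 (SE 0.66), both higher in FLH. DDF1 is a close relative of the CBF genes, and DREB2A encodes the dehydration and heat branch of DRE-binding factors. In SQH with FLH 3 of the 6 were called, beside 22.2% of all genes: DREB2A, DREB2B and DDF1, higher in FLH by 4.01 (SE 0.67), 4.12 (SE 0.87) and 5.90 (SE 1.80). DREB2A and DREB2B were also higher in FLL than in SQL, by 2.55 (SE 0.68) and 3.42 (SE 0.88) and were the 2 called of 6, beside 8.2% of all genes, a comparison in which neither CBF1 nor CBF2 was listed. CBF4 was in no table.

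**Figure D5:**
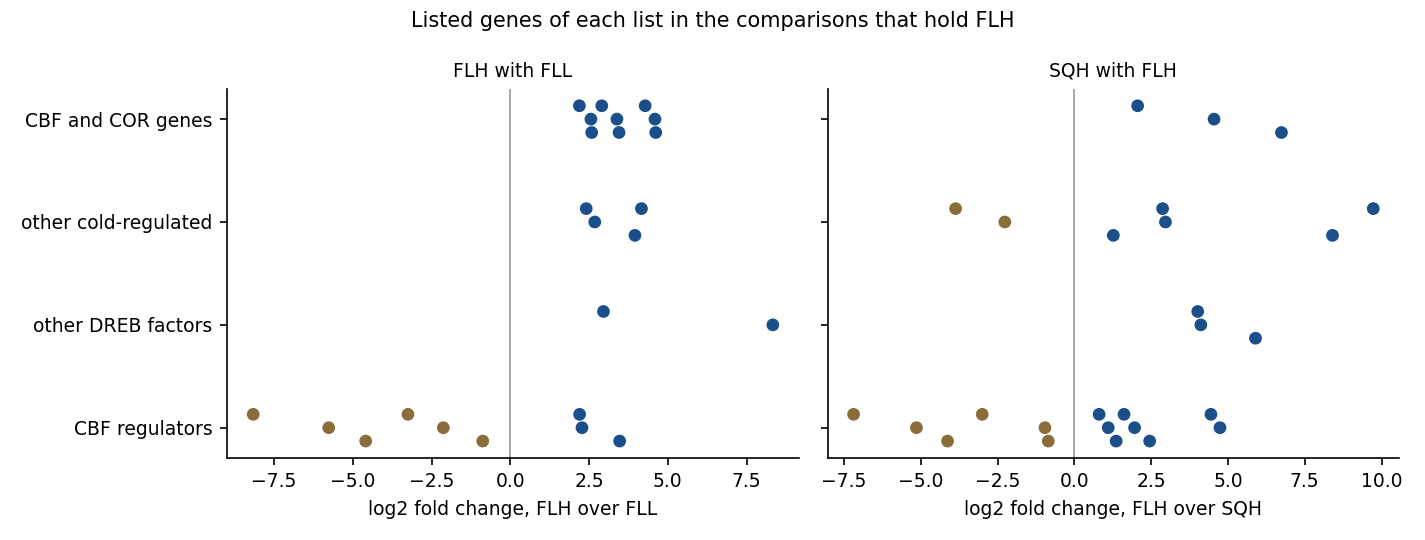
Log2 fold changes of the listed genes of each list, drawn so that positive values (blue) are higher in FLH, for FLH over FLL and FLH over SQH. The 9 CBF and COR genes and the 4 other cold-regulated genes listed for FLH with FLL are all on the positive side, and the CBF regulators lie on both sides.

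The genes most like each member were those with the smallest root mean square difference of log2 fold change over the 2 tables that list the member, which is a description over 2 values only. For CBF2 they were PDF1.2c, a plant defensin gene, AT3G04640, a glycine-rich protein gene, and AT1G77640, annotated as a DNA-binding protein, each at 0.11 among 1140 genes. For CBF1 they were AT5G39580, a peroxidase gene, at 0.33, and AT1G71000 and AT1G30730 at 0.68, while CBF2 ranked 30 at 1.66. For COR47 they were AT4G26055 at 0.04, IP5PII at 0.11 and TCH2, a calmodulin-like gene named for its response to touch, at 0.12. For COR15A they were TCH4, a xyloglucan-modifying enzyme also named for touch, at 0.16, DIC3 at 0.20 and HDA3 at 0.22 among 353 genes. TCH4 shared the wide fold of COR15A, with log2 fold changes of 4.84 for FLH with FLL and 3.73 for SQL with FLL, beside 4.61 and 3.74 for COR15A.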

How the data were processed

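Reads of 12 leaf libraries were aligned by the authors to TAIR10 with HISAT2. The submitters' processing notes also name SAMtools, featureCounts and DESeq2, without versions. The deposited tables hold called genes of the authors' own comparisons and nothing per library, so no model was refitted. Every error derives from the deposited SE. Library depth enters that SE through counting noise and could not be examined by itself. Their columns are a signal (the size-factor-normalised mean that the authors computed), the authors' log2 fold change with its SE, the deposited Wald score, and the authors' p-value, raw and adjusted after Benjamini and Hochberg.

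A positive fold change was read as higher in the first-named regime, since the squared SEs had the order this requires in 439 of 439 checks. The number of genes tested follows from adjusted p over p, for p of at least 1e-04. Regime means, limits for unlisted genes and the 500-base window were devised after the tables had been examined, and the means were tested on simulated data. Intervals are normal 95% intervals.

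Members and lists were chosen with earlier results of these data known. Named genes are the members, the 3 nearest genes of each member in 2 tables, and up to 4 genes per list and comparison by p, with every gene of a count of 5 or fewer. Further CBF regulators and leaf markers were named after their values were seen. Other settings tried are given in the closing section. Sequences came from RefSeq (TAIR10.1), which matched all 10 loci. Python 3.11.15, numpy 2.4.6, pandas 2.3.3, scipy 1.17.1 and matplotlib 3.10.9 were used.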

Additional observations from a re-analysis of the deposited data

Results flagged for a closer look

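The effect of light pattern at high intensity (SQH with FLH) was set against that at low intensity (SQL with FLL) in the 4 genes whose regime means were solved. The same difference, taken the other way round, is that between the intensity effects under square and fluctuating light. On the log2 scale it was -4.59 for CBF1 (95% interval -7.71 to -1.47), -4.03 for CBF2 (-6.16 to -1.89) and -2.997 for COR15A (-5.74 to -0.25), as SQH over FLH less SQL over FLL. In CBF1 and CBF2 FLH exceeded SQH by more than FLL exceeded SQL, and in COR15A SQL exceeded FLL by more than SQH exceeded FLH. For COR47 it was -1.74 (-3.70 to 0.23). What drew attention to the first 3 was that their intervals exclude 0. Each of the 4 genes was called for 1 of these comparisons and not for the other. The choice of genes thus favoured a difference, and the intervals are a description and no test. The intervals come from means solved out of deposited SEs, were looked at after the tables had been examined and are not adjusted over genes. In each gene 1 regime rests on subtraction, and the intervals leave out the error of that step. The planned test of this difference across all genes needs a gene to be listed in both tables. It covered 641 genes, of which 117 passed, and for the intensity effect 141 genes, of which 107 passed, and none of the 10 genes was among those covered.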

How the results depend on the processing

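Of the other settings listed beforehand for counts of genes, 3 moved a count by more than 1.5 times and 13 did not, while 11 started from a count of 0 that could not move and say nothing about stability. With a Bonferroni adjustment over the genes tested, 1 gene, RD29A, was called in FLH with FLL (beside 1.299% of all genes) and 0 in SQL with FLL (0.465%), where COR15A was lost. Both follow from the stricter adjustment. In SQH with FLH, a mean normalised count of at least 100 left 1 gene, COR47 (17.4% of all genes), since both CBF genes are below it. At an adjusted p of 0.01, 6 of the 9 genes of FLH with FLL were counted (4.43% of all genes). In SQH with FLH the same cut left 2 of the 3 genes, CBF1 and CBF2 (13.4% of all genes). A Bonferroni adjustment left the same 2 (3.94%), so COR47 was lost under both. An absolute log2 fold change of 1, or an interval wholly beyond 0.5, left all counts of members as they were. The CCGAC core was present in 7 genes in the 500 bases before the start codon, a window added after the data were seen, beside 2 in the window around the gene start. With calibration constants of 1, also added later, the SQL means became 9.54 for CBF1, 32.9 for CBF2 and 165 for COR47, and the difference of pattern effects of COR47 turned to 3.21, while those of CBF1, CBF2 and COR15A kept their sign at -6.32, -4.92 and -2.98. No paired analysis was possible because no values per library were used, and for the same reason no replicate was left out in turn. Low counts limit CBF1 in the square regimes.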
